A study of Mus musculus with 44 samples.

Results

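Long TRB CDR3s were examined in 44 subcutaneous B16F10 melanoma tumours. The CDR3 (complementarity-determining region 3) is the loop of the T-cell receptor that lies over the middle of the presented peptide. A TRB (β-chain) CDR3 was called from the last residues of its J segment, with 12 endings read as the 12 Trbj genes, and counted as long at 17 or more residues including the flanking cysteine and phenylalanine. There were 3241 distinct long CDR3s among 72765 distinct TRB CDR3s (4.45%). They made 3404 of the 95913 entries, an entry being a CDR3 found in a tumour (3.55%), and 122670 of the 6301600 TRB reads (1.95%).

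All tumours grew in wild-type C57BL/6 mice (C57BL/6J in the methods) and were taken on day 12, with 100 µg of tissue per tumour and 1 library each. They came from 14 vehicle-treated mice (Vehicle, named untreated in the methods), 15 mice given an anti-PD-1 antibody intraperitoneally (aPD-1) and 15 mice given AC484 by oral gavage (AC484, an inhibitor of the tyrosine phosphatases PTPN2 and PTPN1). The numbers of distinct long CDR3s were 273 in Vehicle, 1051 in aPD-1 and 1974 in AC484. The tissue was bulk tumour, so fewer T cells and less TCR RNA per T cell cannot be told apart. B16F10 is a mouse melanoma cell line that carries no TCR of its own, and the receptors counted are those of the T cells within the tumour.

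A TRB gene is assembled by joining a V, a D and a J segment. At the joints nucleotides are trimmed and added without a template, so the junction between the V start and the J end of the CDR3 is partly written anew in each T cell. The loop's length varies with how much is trimmed and added. Mice have 2 D segments. Trbd1 can join J segments of both clusters, whereas Trbd2 lies 3′ of the Trbj1 cluster and joins Trbj2 segments in ordinary rearrangement. The germline D bases are shown because their reading frames recur below, and both were read from GRCm38 on the + strand of chromosome 6, where each is a complete D segment.
Trbd1, chr6:41533201-41533212: gggacagggggc
Trbd2, chr6:41542163-41542176: gggactgggggggc

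Trbd1 reads GTGG, GQG or DRG in its 3 frames, and Trbd2 reads GTGG, GLGG or DWGG. The long CDR3s on which the results turn are shown in lower case, with the junction residues that match neither the germline V start nor the germline J end in capitals. The V start was compared over its first 5 residues at most, for 21 Trbv genes. Any germline V residue beyond these is thus counted with the junction and printed as a capital. The first 5 CDR3s printed were each the largest long CDR3 of a tumour, all with different J genes. The last was found in 8 tumours at low counts.
Trbj2-5, 18 residues: casslGSWTGFnqdtqyf
Trbj2-1, 17 residues: cassfPGLGGRyaeqff
Trbj2-2, 17 residues: cassdPGQGAGtgqlyf
Trbj2-4, 17 residues: casgdASWDWDqntlyf
Trbj1-1, 17 residues: casslSMGQGAntevff
Trbj1-3, 17 residues: cassfRDRGPsgntlyf

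Depth differed between treatments. TRB reads per tumour ran from 5060 to 188185 in Vehicle (median 56219.5), from 58534 to 399662 in aPD-1 (median 199348) and from 32948 to 407156 in AC484 (median 135135). Distinct long CDR3s per tumour ran from 0 to 60 in Vehicle (median 16.5) and from 20 to 123 in aPD-1 (median 77). In AC484 they ran from 60 to 300 (median 95), the highest median, although aPD-1 was deeper. At an equal total of 5060 TRB reads they averaged 11.2 in Vehicle, 20.2 in aPD-1 and 24.9 in AC484. Vehicle 5 had 0 long CDR3s among 108 distinct TRB CDR3s, which allows a share of up to 2.78%, and 5 Vehicle tumours (1, 2, 5, 6 and 12) had fewer than 10. The share of distinct CDR3s, sharing, neighbours and clone size were therefore compared on values expected at an equal total of 5060 TRB reads, that of the shallowest library. J use, by length class and by treatment, and the networks described last were counted on all distinct CDR3s at full depth, so depth differs between the treatments there. The libraries shared 1 flow cell and carried indexes from 4 primer sets. The 12 Vehicle tumours of set 1 and the 8 AC484 tumours of set 4 had a set to themselves, set 2 combined 2 Vehicle with 10 aPD-1, and set 3 combined 5 aPD-1 with 7 AC484. No set held both Vehicle and AC484.

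Most long CDR3s were only just long. Of the 3404 entries, 2711 had 17 residues, 583 had 18, 84 had 19 and 26 had 20 or more. The split was alike among the treatments, with 78.2% of long entries at 17 residues in Vehicle, 79.7% in aPD-1 and 79.8% in AC484. The longest CDR3 had 27 residues, 16 of them in the junction, and was read 58 times in Vehicle 3 with Trbj1-2. The next had 22 residues, was read 31 times in aPD-1 2 and held its Trbj1-1 ending 2 times over. None of the 26 CDR3s of 20 or more residues was found in more than 1 tumour.

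The extra length lay mostly in the junction as defined above. The mean length was 17.25 residues in long and 14.11 in shorter CDR3s. Junction residues averaged 6.04 in long and 3.79 in shorter CDR3s, which was 71.6% of the difference in length. The J end contributed 17.6% (6.55 against 5.99 residues) and the V start 10.7% (4.67 against 4.33 residues). V residues were counted to 5 at most, so the junction part can include germline V residues beyond these, and the V part can be too low. The whole germline J part was kept in 61.3% of long and 40.8% of shorter CDR3s. Since length set the classes, these values describe where the residues lie and were not tested.

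Within the junction, strings read from the D segments were more frequent in long CDR3s. GG was present between the first 4 residues and the J ending in 52.4% of long and 21.5% of shorter CDR3s. DWG, a Trbd2 frame, was present in 17.2% of long and 4.84% of shorter CDR3s, and GLG, another Trbd2 frame added to the search after the values were seen, in 12.8% and 2.66%. Over both J clusters together, the Trbd1 frames GQG (5.00% and 2.89%) and DRG (4.94% and 2.67%) differed less between the classes. These strings divided by J cluster. DWG was present in 21.4% of long Trbj2 CDR3s and in 0.606% of long Trbj1 CDR3s, and GLG in 15.9% and 0.455%. DRG was present in 16.2% of long Trbj1 CDR3s and 2.05% of long Trbj2 CDR3s, and GQG in 13.8% and 2.75%. Among shorter Trbj2 CDR3s DWG was present in 7.30%, GLG in 4.04%, DRG in 2.10% and GQG in 2.05%. Among shorter Trbj1 CDR3s DRG was present in 3.68% and GQG in 4.42%. Within the Trbj1 cluster the Trbd1 frames were thus also more frequent in long CDR3s. Among the printed CDR3s GLGG stands before a Trbj2 end, DRG before a Trbj1 end and GQG before 1 end of each cluster. A longer junction has more places for any string of 2 or 3 residues. Glycine, the residue that most D frames encode, took 25.4% of these inner residues in long and 22.3% in shorter CDR3s, or 2.03 and 1.10 glycines per CDR3.

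The V start also differed. Of the entries starting CTCS (Trbv1), 5.34% were long, against 3.97% of those starting CASS, shared by most Trbv genes, and 3.62% of those starting CASG (Trbv13-2). Of those starting CAW (Trbv31) 2.64% were long, and of those starting CGA (Trbv20) 0.573%. The germline start of Trbv20 is CGAR, and its 21 long entries averaged 6.43 junction residues.

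The share of long CDR3s depended on the J gene. It was highest for Trbj2-4 (7.51% of its entries), Trbj2-2 (5.97%) and Trbj2-3 (5.95%), and lowest for Trbj1-1 (0.480%), Trbj1-2 (0.633%) and Trbj2-7 (1.18%). The 3 genes at the low end are those with a germline J part of 6 residues, of which 0.857% of entries were long in all. The 8 genes with 7 residues had 4.73% and the single gene with 8, Trbj1-6, had 5.22%. Among the genes with 7 residues the share still ranged from 2.20% (Trbj1-5) to 7.51%, and over the clusters it was 2.14% for Trbj1 and 4.28% for Trbj2.

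The same was seen within tumours when the J use of long and shorter CDR3s was compared over the 43 tumours with a long CDR3 (sign-flip permutation test, two-sided, adjusted over 12 J genes). Of the 12 J genes 9 differed (75.0%), 5 higher (41.7%) and 4 lower (33.3%) among long CDR3s. Trbj2-4 made 16.1% ± 6.34 of a tumour's long and 7.52% ± 1.26 of its shorter distinct CDR3s (SD, n = 43), and was higher among long in 41 of 43 tumours. Trbj2-3 was higher by 7.24 percentage points (40 of 43 tumours), Trbj2-1 by 5.19 (34 of 43), Trbj2-2 by 3.57 (33 of 43) and Trbj1-6 by 1.96 (29 of 43, permutation test, adjusted p = 0.0129). Trbj2-7, the most used J among shorter CDR3s, made 4.79% ± 4.78 of long and 15.6% ± 1.48 of shorter CDR3s and was lower among long in 42 of 43 tumours. Trbj1-1 made 1.08% ± 1.41 of long and 9.98% ± 1.19 of shorter CDR3s, lower in 43 of 43. Trbj1-2 was lower by 4.44 points and Trbj1-5 by 1.35 points. For Trbj1-3 (difference 0.76 points, adjusted p = 0.459), Trbj1-4 (-1.47, adjusted p = 0.057) and Trbj2-5 (-0.33, adjusted p = 0.703) no difference passed the test. Trbj2-1, -2, -3 and -4 were the higher genes of the Trbj2 cluster, and each has a germline J part of 7 residues. The length that set the classes includes the J part, so J use is not independent of the classes.

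**Figure D1:**
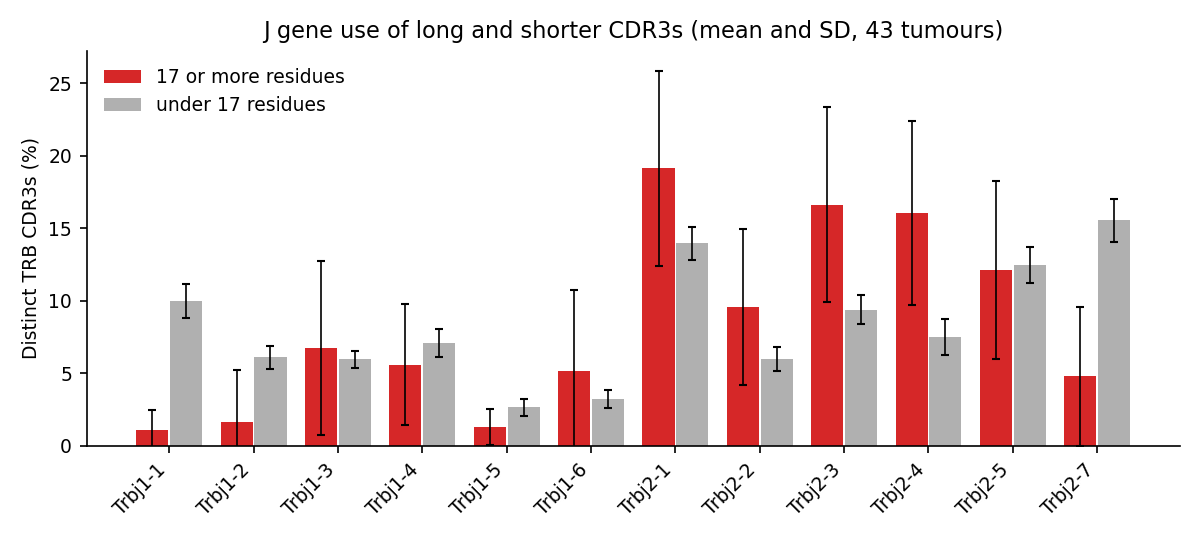
Bars give the mean percent of a tumour's distinct long (red) or shorter (grey) TRB CDR3s that carry each of 12 Trbj genes, with SD over 43 tumours. Trbj2-4 stood at 16.1% of long against 7.52% of shorter CDR3s, and Trbj2-7 at 4.79% against 15.6%.

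Long CDR3s were rarely found in more than 1 tumour. Of the 3241, 104 (3.21%) were found in at least 2 tumours, 12 of them in exactly 3, 9 in 4 to 9, and 1 in 10 or more. Of 69524 shorter CDR3s, 10962 (15.8%) were found in at least 2 tumours and 273 in 10 or more. The percent found in at least 2 tumours fell with each added residue from 11 to 18 residues, from 26.5% at 11 and 17.5% at 14 to 12.2% at 15, 6.99% at 16, 3.62% at 17 and 1.60% at 18. The values on both sides of the threshold, 6.99% and 3.62%, lay on this slope. At 19 residues it was 2.44%, from 2 of 82 CDR3s.

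**Figure D2:**
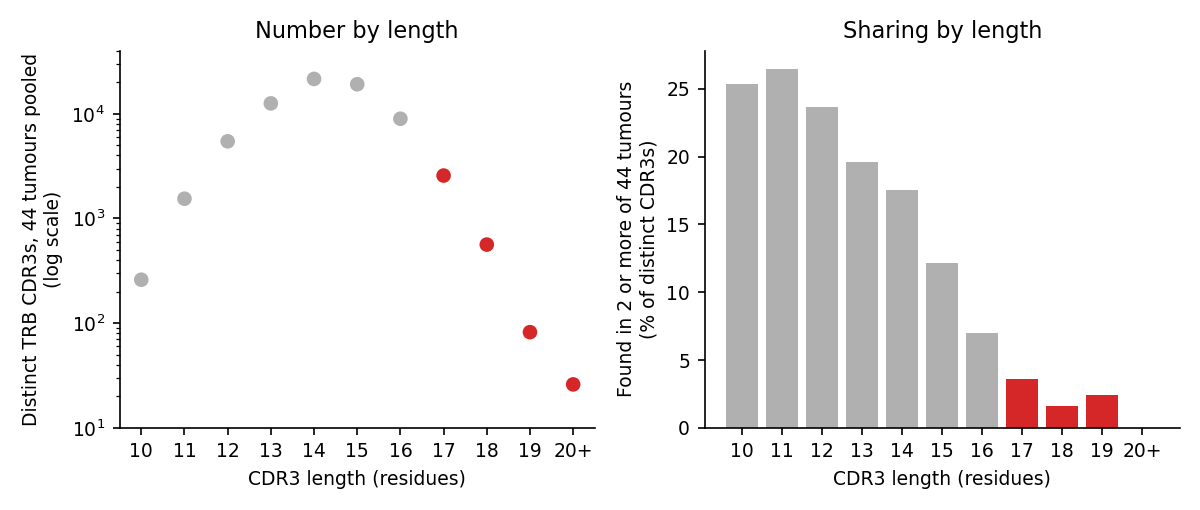
Left, the number of distinct TRB CDR3s of each length in residues (log scale, 44 tumours pooled), and right, the percent of them found in at least 2 tumours, with long CDR3s in red and shorter in grey. The percent fell from 26.5% at 11 residues to 3.62% at 17 and 1.60% at 18.

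Within each tumour, at the equal TRB total, 6.02% ± 4.02 of long CDR3s (SD, n = 43) and 27.8% ± 6.30 of shorter CDR3s (n = 44) were also found in another tumour. The difference was -21.1 ± 5.11 percentage points and long CDR3s were lower in 43 of 43 tumours (sign-flip permutation test, adjusted p = 1e-05, the smallest these permutations can give). By treatment it was -23.6 ± 8.05 in 13 Vehicle tumours, -19.7 ± 3.50 in aPD-1 and -20.3 ± 1.40 in AC484. The tumours are not fully independent here, since each is compared with the same others.

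Long CDR3s also had fewer close relatives. A single-edit neighbour is another TRB CDR3 of the same tumour that differs by 1 substitution, insertion or deletion. At the equal total 2.64% ± 3.47 of long CDR3s had one (n = 43) against 15.4% ± 4.91 of shorter CDR3s (n = 44), and the difference of -13.0 ± 5.79 points was negative in 42 of 43 tumours (permutation test, adjusted p = 1e-05). Vehicle 12 was the exception, with 9 long CDR3s in all. A neighbour is at most 1 residue longer or shorter. Tumours averaged 18.9 distinct long and 613 distinct shorter CDR3s at the equal total. Long CDR3s thus had fewer CDR3s of near length to match. The part of this in the difference was not tested.

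Clones with long CDR3s were smaller on average. The log2 ratio of mean reads per CDR3, long over shorter, was -1.35 ± 1.32 (SD, n = 43), below 0 in 38 tumours and above 0 in 5 (sign-flip permutation test, adjusted p = 1e-05). The 5 tumours above 0 were Vehicle 3, aPD-1 7, aPD-1 14, AC484 6 and AC484 9, and in each of them the largest long CDR3 took at least 2% of TRB reads. It also did so in Vehicle 4 (3.30%) and Vehicle 13 (2.27%), where the ratio was -0.10 and -0.34. When the largest long CDR3 of every tumour was left out and all shorter CDR3s were kept, the ratio was -2.20. Leaving out the largest on the long side only lowers the ratio by construction, so this value does not test the difference. With all reads and the median in place of the mean the ratio was -0.25 (permutation p = 0.00552), and the median of long CDR3s was lower in 28 tumours, equal in 7 and higher in 8. The ratio of medians was thus closer to 0 than the ratio of means.

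**Figure D3:**
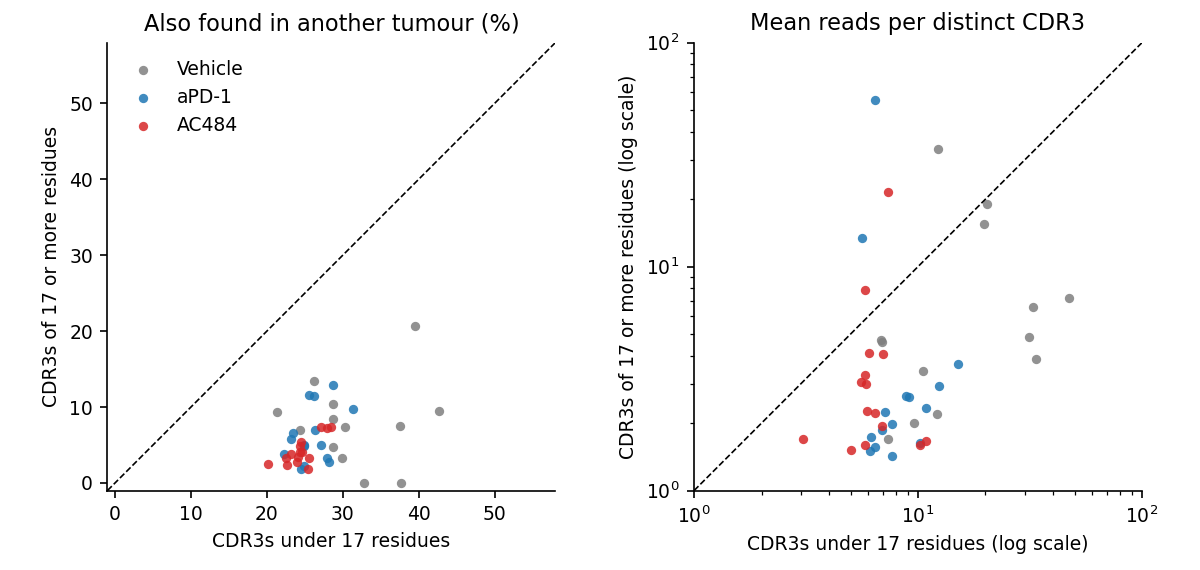
Each point is a tumour with a long CDR3, coloured by treatment, with shorter CDR3s on the x axis and long CDR3s on the y axis, for the percent found in another tumour (left) and mean reads per distinct CDR3 (right, log scales), both at 5060 TRB reads. All 43 points lie below the dashed line of equality on the left and 38 on the right.

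Large clones with long CDR3s were few and lay in different tumours. Of 607 CDR3s that took at least 1% of their tumour's TRB reads, 8 were long (1.32%), 3 in Vehicle, 2 in aPD-1 and 3 in AC484, each in a tumour of its own. At 5% or more, 3 of 158 were long, and at 0.1% or more 77 of 3386 (2.27%). The largest was casslGSWTGFnqdtqyf with Trbj2-5, the leading TRB CDR3 of aPD-1 14 at 31360 reads (18.1% of TRB reads). With it, Trbj2-5 took 31.0% of all long reads but 11.7% of long entries. In AC484 9, cassfPGLGGRyaeqff had 2301 reads (6.98%, rank 3). In Vehicle 3, cassdPGQGAGtgqlyf had 7273 reads (6.89%, rank 4). The next, casgdASWDWDqntlyf in aPD-1 7, had 9816 reads (4.60%, rank 5), and casslSMGQGAntevff in AC484 6 had 9883 reads (3.67%, rank 5). These 5 carried 5 different J genes, and of the other 3 at 1% or more 2 carried Trbj2-3 and 1 carried Trbj2-7.

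The long CDR3s found in the most tumours were largely these same large clones. The Trbj2-5 clone of aPD-1 14 was listed in 13 tumours. In the other 12 it had 1 to 120 reads, each under 1% of its count in aPD-1 14, and 10 of these 12 tumours belonged to the index set of aPD-1 14, which held 11 others. The Trbj2-2 clone of Vehicle 3 was listed in 6 further tumours with 1 to 12 reads, 4 of them of its index set. The Trbj2-4 clone of aPD-1 7 had 1 to 51 reads in 6 further tumours, 5 of its set, and the Trbj1-1 clone of AC484 6 had 1 to 7 reads in 6 further tumours, 4 of its set. The Trbj2-1 clone of AC484 9 had 3 to 60 reads in 5 further tumours, all of its set. The Trbj1-3 CDR3 cassfRDRGPsgntlyf was found in 8 tumours at 6 to 48 reads, and 4 of its 7 further tumours were of its index set. Its relative cassfRDRGLsgntlyf was found in 6 tumours at 3 to 7 reads, with 1 of 5 further tumours of its set. With largest counts this small, 1% of the largest is under 1 read, so no count of either could fall below that mark.

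Over all 104 shared long CDR3s there were 163 further tumours beside the one with the largest count. Of these, 61 (37.4%) held under 1% of the largest count, against 18.1% for shorter CDR3s, and 99 (60.7%) lay in the same index set as the largest, against 34.0% for shorter CDR3s and 23.9% of all pairs of tumours. The same treatment was shared by 54.0%, against 44.7% for shorter CDR3s and 31.8% of all pairs. Index sets and treatments partly coincide, so the values for set and treatment are not independent. Transfer of reads between libraries was not tested. With counts under 1% of the largest left out, 81 long CDR3s (2.50%) and 14.6% of shorter CDR3s were found in at least 2 tumours.

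The first comparison between treatments asked whether long CDR3s took a different share of the repertoire. At the equal TRB total they made 2.90% ± 1.13 of distinct TRB CDR3s in Vehicle (SD, n = 14), 3.12% ± 0.66 in aPD-1 (n = 15) and 2.92% ± 0.41 in AC484 (n = 15), and the ranges overlapped. The lowest and highest Vehicle tumours were Vehicle 5 at 0% and Vehicle 14 at 4.34%. None of the differences passed the permutation test over 12 treatment comparisons. AC484 minus Vehicle was 0.016 percentage points (95% interval by the pooled t formula -0.62 to 0.66, permutation test, adjusted p = 0.961). AC484 minus aPD-1 was -0.21 (-0.62 to 0.20, adjusted p = 0.924), and aPD-1 minus Vehicle was 0.22 (-0.48 to 0.92, adjusted p = 0.924). These intervals bound the difference to under 1 percentage point in either direction and do not show that the shares were equal.

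The highest long shares of TRB reads lay in tumours with a single large long clone. The share was 1.67% ± 2.02 in Vehicle, 2.42% ± 4.86 in aPD-1 and 1.83% ± 1.81 in AC484, with medians of 0.694%, 0.820% and 1.32%. The highest values were 7.29% in Vehicle 3, 19.1% in aPD-1 14 and 7.38% in AC484 9. The differences were 0.16 points for AC484 minus Vehicle (-1.30 to 1.62), -0.59 for AC484 minus aPD-1 (-3.34 to 2.15) and 0.75 for aPD-1 minus Vehicle (-2.13 to 3.62), each with an adjusted p of 0.961 by the permutation test. Leaving out aPD-1 14 turned the sign of both comparisons with aPD-1, to 0.60 and -0.44, and leaving out AC484 6 or AC484 9 turned that of AC484 minus Vehicle (lowest -0.24).

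**Figure D4:**
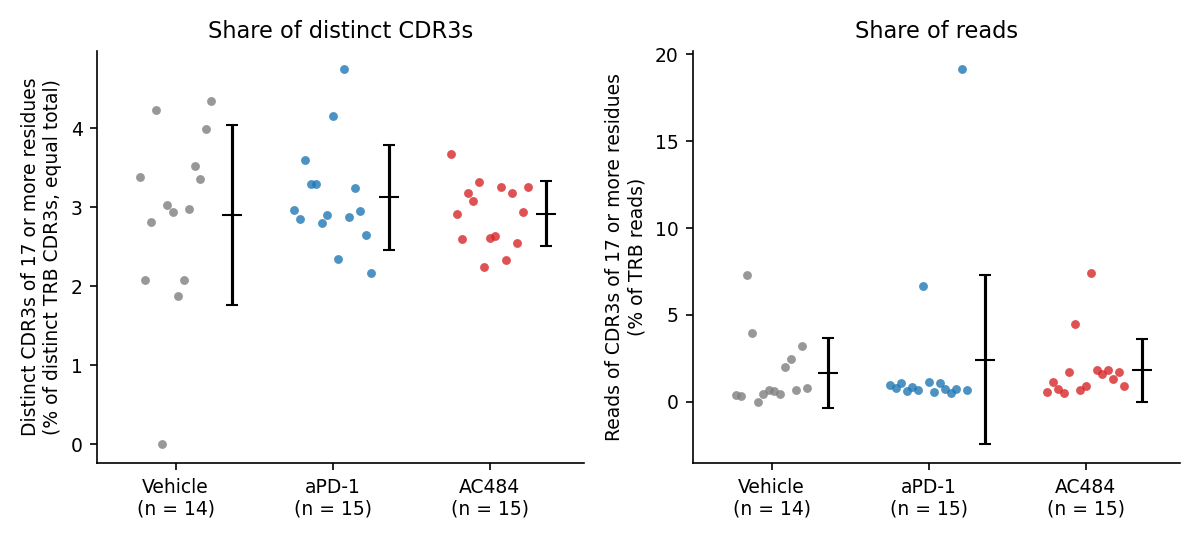
Points are tumours and bars the mean and SD of each treatment, for the long share of distinct TRB CDR3s at 5060 TRB reads (left, percent) and of all TRB reads (right, percent). The groups overlap in both, and aPD-1 14 stands apart at 19.1% of reads.

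Long CDR3s of AC484 tumours were found in other tumours in a smaller share, but the difference did not pass the adjusted test. The values were 7.82% ± 5.49 in Vehicle (n = 13), 6.25% ± 3.58 in aPD-1 and 4.24% ± 1.83 in AC484. AC484 minus Vehicle was -3.58 percentage points (95% interval -6.67 to -0.49, permutation test, p = 0.0184, adjusted p = 0.221), AC484 minus aPD-1 was -2.01 (-4.14 to 0.11, adjusted p = 0.372) and aPD-1 minus Vehicle was -1.57 (-5.12 to 1.99, adjusted p = 0.924). The Vehicle values included 0% in Vehicle 1 and Vehicle 12, with 6 and 9 long CDR3s. Without Vehicle 1 or without Vehicle 12 the difference from AC484 passed the test (lowest adjusted p = 0.0341), and without the 5 tumours with under 10 long CDR3s it was -5.18 (permutation test, adjusted p = 0.00624). Over its alternatives the adjusted p ran from 0.00132 to 0.954. Shorter CDR3s stood in the same order, at 33.1% in Vehicle, 26.0% in aPD-1 and 24.6% in AC484. The difference between long and shorter CDR3s did not itself differ between AC484 and Vehicle past the threshold (3.25 points, permutation test, adjusted p = 0.167). Within index set 3 the 7 AC484 tumours averaged 3.87 points below the 5 aPD-1 tumours (7.64% in aPD-1 and 3.77% in AC484, exact permutation p = 0.0328, adjusted p = 0.131). Within set 2 the 10 aPD-1 tumours averaged 5.55% and the 2 Vehicle tumours 17.1% (exact permutation p = 0.0152, adjusted p = 0.121). That p is the smallest that 10 against 2 tumours can give, and it rests on Vehicle 13 (20.7%) and Vehicle 14 (13.4%).

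The size of long clones relative to shorter ones was -1.49 ± 1.35 in Vehicle, -1.46 ± 1.54 in aPD-1 and -1.10 ± 1.10 in AC484 on the log2 scale. The difference was 0.39 for AC484 minus Vehicle (95% interval -0.56 to 1.34, permutation test, adjusted p = 0.924), 0.36 for AC484 minus aPD-1 (-0.64 to 1.36, adjusted p = 0.924) and 0.03 for aPD-1 minus Vehicle (-1.10 to 1.17, adjusted p = 0.961).

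J use of long CDR3s by treatment was tested on numbers of distinct CDR3s over 24 features, the 12 J genes in each length class (edgeR quasi-likelihood test, adjusted over the 24). Between AC484 and Vehicle 1 of the 12 long features passed, against 2 of all 24 (8.33%), and between AC484 and aPD-1 1 of 12, against 3 of 24 (12.5%). Between aPD-1 and Vehicle the edgeR count was 0 of 12, against 0% of all features, with 0 at an unadjusted p under 0.05 and 0 by DESeq2. The feature in both cases was long Trbj1-3. It was lower in AC484 by a log2 difference of -1.17 from Vehicle (SE 0.35, edgeR adjusted p = 0.0272) and -0.70 from aPD-1 (SE 0.24, edgeR adjusted p = 0.0397). These comparisons share the AC484 tumours. Long Trbj1-3 CDR3s made 0.271% ± 0.374 of all distinct TRB CDR3s in Vehicle (n = 14, range 0 to 1.18%), 0.284% ± 0.164 in aPD-1 (n = 15) and 0.163% ± 0.075 in AC484 (n = 15, range 0.034% to 0.296%), so the groups overlapped. Both calls were lost when the index set was a term (-2.02 with adjusted p = 0.201, and -0.80 with adjusted p = 0.434, edgeR). Over the alternatives other than leaving out a tumour or the network described next, the adjusted p ran from 0.0148 to 0.813 against Vehicle and from 0.0364 to 0.493 against aPD-1. The call against Vehicle was also lost without Vehicle 4 (29.4% of whose 17 long CDR3s were Trbj1-3), Vehicle 11 or Vehicle 14 (range -1.30 to -0.91), and the call against aPD-1 without any one of 15 tumours (range -0.78 to -0.60).

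The long Trbj1-3 CDR3s included 1 set of related CDR3s, picked out after the values were seen and described here with no test. When long CDR3s of any tumour that differed by 1 edit were joined, 899 of the 3241 (27.7%) fell into 229 networks. The network with the most entries held 33 CDR3s and 57 entries, all with Trbj1-3 and all of 17 residues, and 32 of the 33 carried DRG, the Trbd1 frame. Its CDR3s recurred between tumours, at 1.73 entries per CDR3, against 1.03 to 1.14 in the other 9 largest networks. The network was picked through its member found in the most tumours, so part of this recurrence follows from the choice. Of the 33, 22 started CASSF, the germline start of Trbv14, and 7 started CASSY. That start is not among those of the 21 Trbv genes read, so its Y is printed as a capital. The variation was concentrated at residue 10, which took 11 different amino acids, while residues 7 and 9 (D and G) and the J end from residue 12 were the same in all 33. The 5 members found in the most tumours are shown, with the junction in capitals.
8 tumours: cassfRDRGPsgntlyf
6 tumours: cassfRDRGLsgntlyf
3 tumours: cassYRDRGLsgntlyf
3 tumours: cassfRDRGYsgntlyf
3 tumours: cassfRDRGDsgntlyf

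The network was found in 21 tumours, 7 of 14 Vehicle, 11 of 15 aPD-1 and 3 of 15 AC484. Its entries numbered 20 in Vehicle, 32 in aPD-1 and 5 in AC484, although AC484 had the most long entries, and these were 7.04%, 2.93% and 0.247% of the long entries of each treatment. They made 60.6% of the 33 long Trbj1-3 entries in Vehicle, 38.1% of 84 in aPD-1 and 5.21% of 96 in AC484. The first printed member was found in 3 Vehicle and 5 aPD-1 tumours and no AC484 tumour. All were small clones, with 143 reads as the largest count (Vehicle 13). At counts this low, 1% of the largest count is near or under 1 read, so that mark cannot tell low counts apart. By index set the network was present in 5 of 12 Vehicle tumours of set 1 and 2 of 2 of set 2, in 8 of 10 aPD-1 tumours of set 2 and 3 of 5 of set 3, and in 2 of 7 AC484 tumours of set 3 and 1 of 8 of set 4. In set 3, which held both drugs, it had 9 entries among 266 long entries of aPD-1 and 2 among 994 of AC484. CDR3s of 16 residues that lacked 1 residue of a member numbered 16 and were found in 8 Vehicle, 8 aPD-1 and 2 AC484 tumours. All entries of 16 residues numbered 833 in Vehicle, 3177 in aPD-1 and 6021 in AC484. These relatives were chosen through the network, so their spread over treatments is not independent of it.

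The long Trbj1-3 entries outside the network numbered 13 in Vehicle, 52 in aPD-1 and 91 in AC484. DRG was present in 63.6% of long Trbj1-3 entries in Vehicle, 36.9% in aPD-1 and 14.6% in AC484, and in 4.78%, 3.77% and 3.88% of the long entries with other J genes. Among shorter Trbj1-3 entries it was present in 7.27%, 4.25% and 3.66%, in the same order of treatments as among the long ones.

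**Figure D5:**
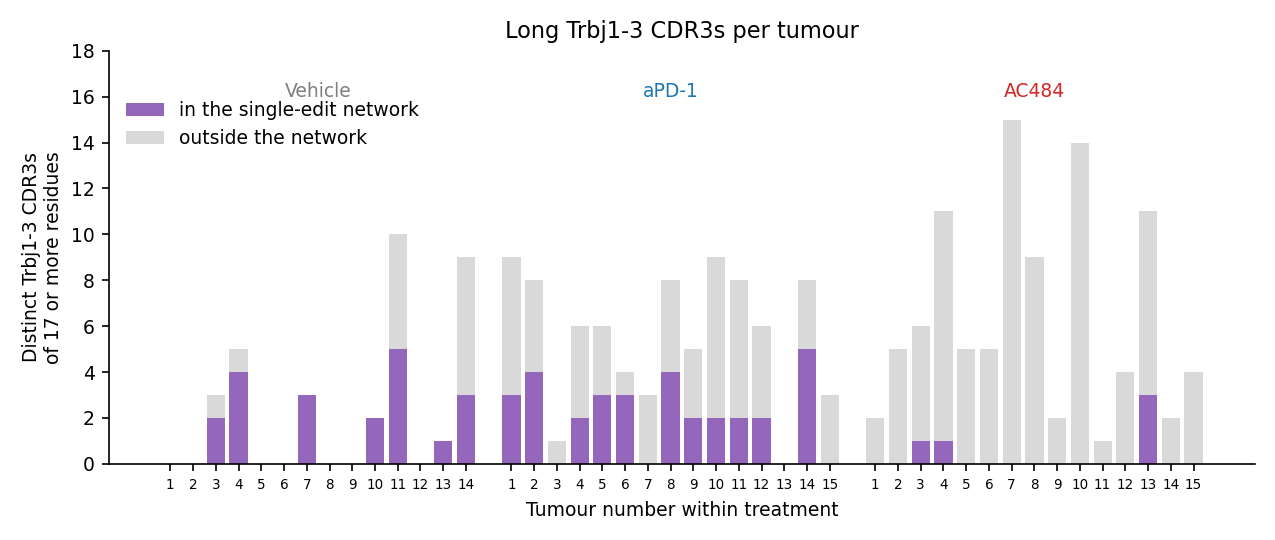
Stacked bars give the number of distinct long Trbj1-3 CDR3s in each of the 44 tumours, by treatment, split into members of the DRG network (purple) and others (grey). The network was present in 7 of 14 Vehicle, 11 of 15 aPD-1 and 3 of 15 AC484 tumours, and the tallest bar was 15 CDR3s in AC484 7, all outside it.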

How the data were processed

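The deposited table gives, for each tumour, the read count of every amino-acid CDR3. From polyA RNA the authors amplified TCR α and β transcripts (SMARTer kit, Takara), ran the libraries on a MiSeq and built clonotypes with MIXCR, and the submitters' notes name mm10. The counts are not normalised and carry no molecular identifiers and no V gene, chain or nucleotide sequence. The upper share given for the tumour without long CDR3s covers counting error only. The 95% intervals cover the spread between tumours. Of the 170818 entries 56.1% (70.2% of reads) had one of the 12 TRB endings. A further 1266 of 17 or more residues had none and were not used, 71 of them starting CASS.

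The members and lists were chosen with earlier results of these data known. Tumours were the replicates, grouped by GEO's treatment label. V starts, J parts and D segments were read from GRCm38 for 21 Trbv genes. Expected values at 5060 TRB reads came from the exact rarefaction formula, and single-edit neighbours from 20 draws. Tests of differences permuted tumours, two-sided, 100000 times (all permutations with under 10 tumours in a group). They were adjusted by Benjamini-Hochberg over 12 treatment tests, 3 within-tumour measures, 12 J genes or the tests within index sets, at 0.05. J use by treatment was fitted with edgeR 4.0.16 with DESeq2 1.42.0 as an alternative (R 4.3.3). Python 3.11.15, NumPy 2.4.6, pandas 2.3.3 and SciPy 1.17.1 were used. The methods were tested on simulated data. Named were the J genes past the test, the 5 long CDR3s in the most tumours, the largest of each treatment, the 3 largest at 1% or more and the longest. Networks and GLG were chosen after the values were seen. Alternatives changed the length threshold, depth, low counts, carry-over, near-copies, endings, test, normalisation, pairing, index set and the tumours included.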

Additional observations from a re-analysis of the deposited data

Results flagged for a closer look

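The difference between long and shorter CDR3s in single-edit neighbours was not the same in the 3 treatments, by a permutation test of the difference itself. Long minus shorter was -7.87 ± 6.56 percentage points in Vehicle (SD, n = 13), -13.5 ± 2.89 in aPD-1 (n = 15) and -16.9 ± 3.76 in AC484 (n = 15). AC484 minus Vehicle was -9.04 (permutation test, adjusted p = 0.00036), AC484 minus aPD-1 was -3.44 (adjusted p = 0.0165) and aPD-1 minus Vehicle was -5.60 (adjusted p = 0.0128), adjusted over 6 tests. The percent of shorter CDR3s with a neighbour was 11.4% in Vehicle, 15.98% in aPD-1 and 18.6% in AC484, whereas long CDR3s with one stood at 3.91%, 2.51% and 1.67% and did not differ past the threshold (permutation p = 0.15, 0.224 and 0.38). Distinct shorter CDR3s at the equal total averaged 362, 631 and 829 in the same order, and their part in this difference was not tested.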

How the results depend on the processing

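Sharing, clone size and single-edit neighbours of long against shorter CDR3s kept their direction and stayed past the threshold in every alternative run on them, with a highest adjusted p of 1.5e-05, 0.00552 and 1.5e-05 by permutation. For clone size, leaving out the largest long CDR3s lowers the ratio by construction and does not test its direction. Of 314 values under alternatives other than leaving out a tumour, 34 turned in sign, and all but 3 of these passed the test in neither setting. Of the 3, Trbj1-3 by treatment is given below, and J use of Trbj1-3 passed when turned, at -2.56 percentage points with a length of 18 or more (permutation test, adjusted p = 0.034). At that length Trbj1-4 was 0.39 and Trbj2-5 1.24, at the equal TRB total Trbj1-3 was -0.17 and Trbj2-5 0.036, and at 16 or more Trbj1-4 was 0.36.

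With a length of 16 or more, sharing passed the test for AC484 minus Vehicle (-8.23) and aPD-1 minus Vehicle (-6.60), and it passed for AC484 minus Vehicle without tumours with under 10 long CDR3s (-5.18), a setting added once the values were known, as were those without the network and without the largest clones. Also at 16 or more, the read share turned to -0.52 (AC484 minus Vehicle), 0.45 (AC484 minus aPD-1) and -0.97 (aPD-1 minus Vehicle), and clone size to -0.14 (AC484 minus Vehicle) and -0.35 (aPD-1 minus Vehicle). At 18 or more, the share of distinct CDR3s was 0.049 (AC484 minus aPD-1) and sharing 1.70 (aPD-1 minus Vehicle). Without tumours with under 10 long CDR3s, the share of distinct CDR3s was -0.28 (AC484 minus Vehicle) and -0.074 (aPD-1 minus Vehicle), the read share -0.56 (AC484 minus Vehicle), and clone size -0.15 (AC484 minus Vehicle) and -0.51 (aPD-1 minus Vehicle). The share of distinct CDR3s for AC484 minus Vehicle, 0.016 as reported, was -0.053 with carry-over counts left out, -0.0059 with endings of 4 residues, -1.52 in mean ranks and -0.0081 with the replicate number as a block. Mean ranks gave -0.14 for aPD-1 minus Vehicle in distinct CDR3s and 4.60 for AC484 minus aPD-1 in reads. Clone size for aPD-1 minus Vehicle, 0.03 as reported, was -0.16 with all reads, -0.0043 without single-read CDR3s and -0.049 with endings of 4 residues. Within index set 2 aPD-1 minus Vehicle was -0.87 in distinct CDR3s, -0.56 in reads and -0.26 in clone size. Within set 3 AC484 minus aPD-1 was 0.23 in distinct CDR3s and -0.48 in clone size. The cause of these changes was not tested.

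For J use by treatment, 0 long J genes in place of 1 were called by edgeR between AC484 and Vehicle with a length of 16 or more, with 18 or more, without single-read CDR3s, without the Trbj1-3 network, with the replicate block and with the index set as a term. Between AC484 and aPD-1 the count was 0 under TMM, by DESeq2, at 18 or more, without the network, with the replicate block and with the index set. Trbj1-3 for AC484 minus Vehicle was 0.52 at 18 or more and 0.060 without the network. The network was picked after its counts by treatment were seen, so the values without it follow from that choice and test nothing. Replicate numbers were taken as names only. Same-numbered tumours had median correlations of -0.02, -0.03 and -0.08, with highest values of 0.27, 0.61 and 0.75. Of the pairs, 4 of 14, 2 of 15 and 4 of 14 were over 0.1. Within each treatment the numbers run in the order of the index sets, and these correlations cannot exclude a pairing. With the replicate block Trbj1-3 was -1.14 (adjusted p = 0.1) and -0.73 (adjusted p = 0.108, edgeR).

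Leaving out each tumour gave 0 to 1 J genes called in both comparisons with AC484 and 0 between aPD-1 and Vehicle. For AC484 minus Vehicle, AC484 minus aPD-1 and aPD-1 minus Vehicle, the share of distinct CDR3s ran from -0.21 to 0.13, -0.27 to -0.090 and -0.0015 to 0.33. The read share ran from -0.24 to 0.59, -0.99 to 0.60 and -0.44 to 1.18. Sharing ran from -4.23 to -2.51, -2.32 to -1.54 and -2.22 to -0.50. Clone size ran from 0.20 to 0.64, 0.17 to 0.69 and -0.29 to 0.28. With a median of 16.5 long CDR3s per Vehicle tumour, 1 CDR3 moves the sharing value of a Vehicle tumour by several percentage points.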
